A study of Macaca mulatta with 30 samples.

Results

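Very heavy drinkers and low drinkers are the extremes of voluntary ethanol intake among 30 male rhesus macaques whose cortical area 32 was profiled by RNA sequencing, 1 library per animal. The comparison holds 16 of the 30 libraries, 6 of very heavy drinkers (VHD) and 10 of low drinkers (LD), taken from the drinking category that the labels give each animal. A VHD animal averaged over 3 g of ethanol per kg of body weight a day and exceeded 4 g/kg on at least 10% of open access days. LD animals met none of the criteria for the very heavy, heavy (HD, n = 7) or binge (BD, n = 7) category. All animals, LD included, had open access to 4% (w/v) ethanol for 22 h a day for over a year, so LD is a group of light drinkers and not one that never drank. The HD and BD libraries entered the fits to estimate spread and cohort levels and are compared with VHD below.

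The animals came from 4 cohorts, and the categories were spread over them unevenly. The VHD animals came from cohort 5 (4 animals) and cohort 7a (2 animals), and the LD animals from cohort 7a (3 animals), cohort 7b (3 animals) and cohort 4 (4 animals). VHD and LD therefore meet directly in cohort 7a alone, with 2 animals against 3, and elsewhere the cohort levels are tied together by HD and BD animals. Cohort also carries age, since the mean age at the end of drinking was 7.15 years in cohort 5, 5.7 years in cohort 7a, 7.18 years in cohort 7b and 9.98 years in cohort 4. The values are reads per gene or exon that the authors scaled to a common upper quartile, called normalized reads here. Depth in the measured exons, in units of 10 to the power of 6 reads, was 6.58 to 13.5 in VHD libraries and 4.39 to 13.1 in LD libraries. LD replicate 3, of cohort 4, had the lowest depth and lay apart from the other VHD and LD libraries at −35.3 on the first principal component.

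Area 32 lies in the medial prefrontal cortex, which takes part in the control of goal-directed and emotional behaviour. Ethanol acts on GABA-A and NMDA receptors and on several ion channels of cortical neurons, and its breakdown product acetaldehyde is cleared by aldehyde dehydrogenases. Cortical tissue mixes neurons, astrocytes, myelinating oligodendrocytes, microglia and the cells of blood vessels. The neuronal gene SNAP25, which encodes a synaptic fusion protein, had 14747 normalized reads in the lowest VHD library, a median of 16014 and a highest value of 17625, against 13641, 15977 and 18435 in LD. CAMK2A, of excitatory neurons, had medians of 24506 in VHD and 25420 in LD, and GAD1, the GABA-synthesizing enzyme of inhibitory neurons, 3235 in VHD and 3207 in LD. The haemoglobin gene HBB had 0 to 6.41 normalized reads in VHD libraries and 3.40 to 23.5 in LD libraries, so HBB was near the floor in both groups.

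No single gene separated very heavy from low drinkers after correction for the number of genes. Of 12935 genes tested with limma on log2(normalized reads + 1), with category and cohort in the model and Benjamini-Hochberg adjustment, 0 (0%) had an adjusted p under 0.05. At an unadjusted p under 0.05, 228 genes (1.76%) were higher and 225 genes (1.74%) were lower in VHD, together fewer than the 5% of tested genes set by that threshold. The total of 453 was 813 when VHD replicate 4 was left out, again with 0 genes called. On the recovered whole reads edgeR and DESeq2 called 0 genes as well, with 492 and 521 at an unadjusted p under 0.05. No gene (0%) had all 6 VHD values above all 10 LD values, and 3 genes (0.0232%) had all 6 VHD values below all 10 LD values. Every gene named below is therefore described by its values, its estimate with its standard error and its unadjusted p, and none passed the adjusted test in this fit. A difference is VHD minus LD in log2 units.

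Among genes with higher VHD estimates, DZIP1 had the smallest unadjusted p. DZIP1 encodes a zinc finger protein at the base of the primary cilium, the antenna-like organelle through which cells receive Hedgehog signals. The gene spans positions 76944342 to 77007970 of chromosome 13, in 23 listed exons that total 4761 bases, with positions and chromosome names as the exon names give them. Its lowest, median and highest values were 2140, 2319 and 2711 normalized reads in VHD, against 1509, 1667 and 2266 in LD. Of the 6 VHD libraries, 4 lay above the highest LD library, and each of the 6 exceeded the LD median. The difference was 0.42 ± 0.09 (SE, unadjusted p = 0.000108), with an adjusted p of 0.948 by limma with Benjamini-Hochberg adjustment.

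The DZIP1 values of LD animals were highest in cohort 4, although the cohorts overlapped. The 3 highest LD values, 2139, 2258 and 2266 normalized reads, all came from cohort 4, the oldest cohort, whereas the 6 LD animals of cohorts 7a and 7b had 1509 to 1741. The remaining LD animal of cohort 4 had 1667, within that range. Within cohort 7a the 2 VHD libraries had 2255 and 2310 normalized reads, against 1509 to 1668 in the 3 LD libraries, a difference of 0.51. When the mean age of the cohort replaced cohort in the model, the DZIP1 difference was 0.49 with an adjusted p of 0.00879 by limma, and it was then the 1 gene called. Across 31 alternative fits its adjusted p ranged from 0.00879 to 0.9996 and its difference from 0.38 to 0.51. All 23 exons of DZIP1 had positive differences, from 0.25 to 0.89, and 14 of them had an unadjusted p under 0.05.

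Genes of the lysosome, the compartment in which cells digest glycoproteins, lipids and worn organelles, stood on both sides. AGA encodes aspartylglucosaminidase, which cuts sugar chains from asparagine during glycoprotein breakdown. It had 107, 139 and 180 normalized reads (lowest, median, highest) in VHD, against 64.1, 105 and 142 in LD. The groups overlapped, although each of the 6 VHD libraries exceeded the LD median and 3 lay above the highest LD library. The AGA difference was 0.76 ± 0.18 (unadjusted p = 0.000189) and was 0.77 within cohort 7a, while it was 0.44 without the cohort term. As in all bulk tissue, a larger number of cells that express a gene and more of its RNA per cell cannot be told apart.

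LIPA encodes lysosomal acid lipase, which releases cholesterol and fatty acids from lipids taken up by the cell. It had 196, 228 and 236 normalized reads in VHD, against 144, 182 and 230 in LD. Every one of the 6 VHD libraries exceeded the LD median, and the difference was 0.45 ± 0.15 (unadjusted p = 0.004). DNASE2, the acid DNase of lysosomes, went the other way at −0.43 ± 0.18 (unadjusted p = 0.0224). Across 43 tested lysosomal hydrolase genes, 15 differences were above 0 and 28 below, with a median of −0.07, against a median of 0.00 over all tested genes. At an unadjusted p under 0.05, 2 of the 43 were higher (AGA and LIPA) and 1 was lower (DNASE2). The lysosomal cation channel gene MCOLN1 and TFEB, the transcription factor that drives lysosomal genes, had differences of −0.35 ± 0.18 and −0.39 ± 0.20, both at an unadjusted p over 0.05.

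LTBR encodes the receptor for lymphotoxin, a cytokine of immune cells, and signals to NF-kB. Its values were 180, 225 and 278 normalized reads in VHD and 85.6, 137 and 216 in LD. Of the 6 VHD libraries 4 lay above the highest LD library, and in cohort 7a both VHD libraries (180 and 250) lay above the 3 LD libraries (90.8 to 127). The difference was 0.71 ± 0.23 (unadjusted p = 0.00402), and all 10 exons had positive differences, from 0.43 to 1.19. Against the other categories LTBR was at 0.22 ± 0.20 (VHD minus HD) and 0.13 (VHD minus BD). The wider NF-kB and tumour necrosis factor list had 14 differences above 0 and 22 below among 36 tested genes and a median of −0.07. From that list IKBKB, a kinase that activates NF-kB, was at −0.22 ± 0.10 (unadjusted p = 0.0365), and TNFAIP3, an inhibitor of the pathway, at −0.28 ± 0.18. The list's median was 0.02 within cohort 7a.

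**Figure D1:**
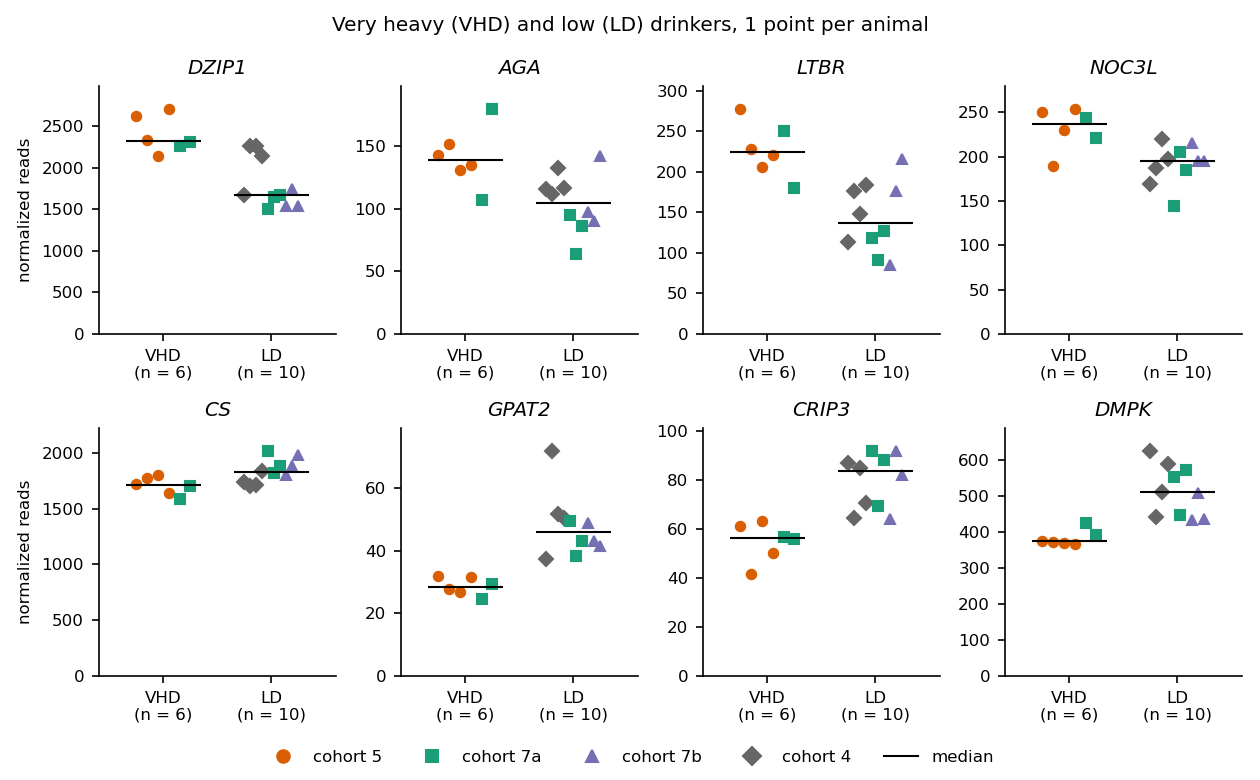
Normalized reads of 8 genes (linear axes from 0) in each VHD and LD library, with cohort by symbol and the group median as a line. The 6 VHD libraries lie at 2140 to 2711 for DZIP1, where 3 cohort 4 LD animals reach 2139 to 2266, and below all 10 LD libraries for GPAT2, CRIP3 and DMPK.

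The other genes with the smallest p among those higher in VHD belong to varied pathways. GPRIN3, a partner of G proteins in growing neurites, had 218, 230 and 286 normalized reads in VHD and 142, 186 and 249 in LD. HMGB3, a DNA-bending chromatin protein, had 138, 166 and 200 in VHD and 116, 126 and 168 in LD. NOC3L, a nucleolar protein of ribosome assembly, had 190, 237 and 254 in VHD and 145, 195 and 220 in LD. In NOC3L 5 of the 6 VHD libraries lay above the highest LD library, the largest number among these genes, while the remaining VHD library lay below the LD median. The differences were 0.52 ± 0.14, 0.49 ± 0.13 and 0.36 ± 0.12 in the order given.

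TAF1D, a subunit of the RNA polymerase I initiation factor, was at 0.33 ± 0.10, with 216 to 313 normalized reads in VHD and 175 to 266 in LD. TP53RK, a kinase of the complex that modifies transfer RNAs, was at 0.34 ± 0.11, and SUCO, a SUN domain protein of the endoplasmic reticulum, at 0.31 ± 0.09. All 5 tested TAF1D exons, both TP53RK exons and 21 of 22 SUCO exons had positive differences. TMEM100, a membrane protein gene of the endothelium, was at 1.14 ± 0.36, with 91.1, 173 and 326 normalized reads in VHD and 47.0, 116 and 173 in LD. PLAC9 was at 1.06 ± 0.33, KLHL41, a muscle kelch protein gene, at 0.56 ± 0.18, and FSD1L at 0.73 ± 0.24. PTPN20B, a tyrosine phosphatase gene with a near-identical copy in the human genome, was at 1.54 ± 0.47 on low levels, 12.1 to 47.5 normalized reads in VHD and 2.07 to 38.1 in LD, and only 1 of its 10 listed exons passed the exon filter. Its value is uncertain where reads can map to both copies.

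Most of these genes kept their order within the cohort that holds both categories. Of the 15 genes with the smallest p among those higher in VHD, 13 had both cohort 7a VHD values above all 3 cohort 7a LD values, and TMEM100 and FSD1L did not. Over all 12935 tested genes the same was true of 1832, or 14.2%. These 5 libraries also entered the fit that chose the genes, so the count is a description of the same animals.

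CS, which encodes citrate synthase, the enzyme that starts the citric acid cycle in mitochondria, had a small negative difference with narrow spread. It had 1589, 1709 and 1803 normalized reads in VHD, against 1705, 1825 and 2019 in LD. All 6 VHD libraries lay below the LD median and 3 lay below the lowest LD library. The difference was −0.18 ± 0.06 (unadjusted p = 0.00345), −0.21 in cohort 7a alone and −0.11 with no cohort term. All 11 CS exons had negative differences, from −0.57 to −0.03. Cohort 4 LD animals (1705 to 1832) were nearer to VHD than the LD animals of cohorts 7a and 7b (1802 to 2019).

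Across the citric acid cycle and its entry steps, 13 of 30 tested genes had differences above 0 and 17 below, with a median of −0.04. At an unadjusted p under 0.05, 0 were higher and 4 lower. Beside CS these were IDH2, mitochondrial isocitrate dehydrogenase, at −0.20 ± 0.09, PC, pyruvate carboxylase, at −0.28 ± 0.13, and OGDH, a subunit of the oxoglutarate dehydrogenase complex, at −0.16 ± 0.08. OGDH is named because it completes this count and was chosen after its value was seen. The IDH2 values, 1366 to 1784 normalized reads in VHD and 1501 to 1982 in LD, overlapped over most of their range. In cohort 7a the 4 genes were at −0.21, −0.17, −0.23 and −0.24, and the list's median was −0.02. Without the cohort term the median was 0.02.

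Glycolysis genes had 7 differences above 0 and 16 below among 23, with a median of −0.05, and 0 at an unadjusted p under 0.05. GAPDH, glyceraldehyde 3-phosphate dehydrogenase, had 16738, 17848 and 20114 normalized reads in VHD and 17734, 19483 and 22226 in LD, a difference of −0.14 ± 0.07. Oxidative phosphorylation genes had 23 differences above 0 and 44 below among 67, with a median of −0.04. The sign of that median was not stable, since it was 0.03 in cohort 7a alone and 0.06 with no cohort term. NDUFA10, a subunit of respiratory complex I, was the 1 gene of the list lower at an unadjusted p under 0.05, at −0.19 ± 0.07, and was at −0.04 within cohort 7a. ALDH2, which clears acetaldehyde, was at 0.22 ± 0.10, with 1142, 1343 and 1573 normalized reads in VHD and 1018, 1143 and 1495 in LD. The ethanol metabolism list as a whole had 6 differences above 0 and 5 below among 11 tested genes, with a median of 0.00. At an unadjusted p under 0.05, 1 of the 11 was higher and 0 were lower.

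Single genes of the cell cycle, DNA repair and splicing lists were among those with the smallest p on the lower side. CCNF, the F-box protein cyclin F, had 163, 220 and 260 normalized reads in VHD and 206, 307 and 394 in LD, a difference of −0.44 ± 0.14 (unadjusted p = 0.00287) and −0.86 within cohort 7a. All 6 VHD libraries lay below the LD median, and 13 of 16 tested CCNF exons had negative differences. FANCG, of the Fanconi anaemia complex that repairs DNA crosslinks, had 107, 134 and 151 in VHD and 111, 169 and 194 in LD, and LIG1, the DNA ligase of replication, 147, 153 and 173 in VHD and 162, 198 and 219 in LD. In both genes all 6 VHD libraries lay below the LD median, and both differences were −0.39, with SEs of 0.13 and 0.14. These 2 were the members of the DNA repair list lower at an unadjusted p under 0.05, and the list as a whole had 19 differences above 0 and 22 below among 41, with a median of −0.00. Among 37 cell cycle genes, 24 differences were above 0 and 13 below, and E2F3, a transcription factor of the cell cycle, was higher at 0.25 ± 0.10 (unadjusted p = 0.0234).

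SEC31B, a coat protein of vesicles that leave the endoplasmic reticulum, had 594, 611 and 716 normalized reads in VHD and 643, 778 and 887 in LD. Of the 6 VHD libraries 4 lay below the lowest LD library, the difference was −0.26 ± 0.08 (unadjusted p = 0.00409), and 23 of 25 exons had negative differences. The other 35 tested genes of the coat and Golgi transport list had no member at an unadjusted p under 0.05, and 20 of the 36 differences were above 0. SNRPC, a protein of the U1 splicing particle, had 25.2, 26.5 and 28.8 normalized reads in VHD, a very narrow range, and 23.7, 37.3 and 65.2 in LD. Its difference of −1.01 ± 0.33 in the fit shrank to −0.21 in cohort 7a alone and −0.45 with no cohort term. SNRPC was the 1 of 42 splicing genes lower at an unadjusted p under 0.05, and 24 of the 42 differences were above 0. C18orf21 was at −0.63 ± 0.16, with 4 of 6 VHD libraries below the lowest LD library.

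GLIS3, a Kruppel-like zinc finger transcription factor, had 90.0, 117 and 130 normalized reads in VHD and 122.8, 150 and 193 in LD, with 5 of 6 VHD libraries below the lowest LD library. Its difference was −0.44 ± 0.14 in the fit and −0.19 within cohort 7a, where the libraries overlapped. FREM1, an extracellular matrix protein of basement membranes, had 380 to 470 in VHD and 443 to 571 in LD and a difference of −0.26 ± 0.08. RNF43, a ubiquitin ligase that removes Wnt receptors, was at −0.56 ± 0.18 and −0.12 within cohort 7a. The ligand gene WNT3 was at 0.49 ± 0.24 on low levels of 19.8 to 32.5 normalized reads in VHD and 11.0 to 23.7 in LD. Their list, Wnt signalling, was balanced, with 19 differences above 0 and 21 below among 40 and a median of −0.01. At an unadjusted p under 0.05, 1 of its genes was higher and 1 lower. SYPL2, of the synaptophysin family, was at −0.83 ± 0.27, TTLL13, of the tubulin ligase family, at −0.96 ± 0.28, and MYL7, a myosin light chain, at −1.13 ± 0.37 on values of 3.49 to 23.2 in VHD and 12.4 to 29.9 in LD. PLA2G16, a phospholipase, was at −0.31 ± 0.10 in the fit but −0.06 without the cohort term, with medians of 243 normalized reads in VHD and 250 in LD. Of the 15 genes with the smallest p among those lower in VHD, 10 had both cohort 7a VHD values below all 3 cohort 7a LD values, against 1568 of 12935 (12.1%) over all tested genes. The exceptions were SYPL2, SNRPC, RNF43, CD93 and GLIS3. Dropping the cohort term made the difference over 1.5 times smaller in 6 of the 15 higher genes and in 9 of the 15 lower ones, and it changed the sign of 0 genes. GIMAP5 (−0.51), CD93 (−0.32), KLHL41 (0.27) and TP53RK (0.17) were among those that were smaller without it.

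The exons of these genes mostly had differences of the same sign. In the 15 genes with the smallest p among those higher in VHD, 114 of 120 tested exons (95%) had positive differences, and in 14 of the 15 lower genes with tested exons, 120 of 138 (87.0%) had negative ones. Over all tested exons 49.0% were above 0 and 51.0% below. Each gene value is the sum of its exons in the same libraries, so these counts show how a difference is spread along a transcript and do not add independent animals.

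**Figure D2:**
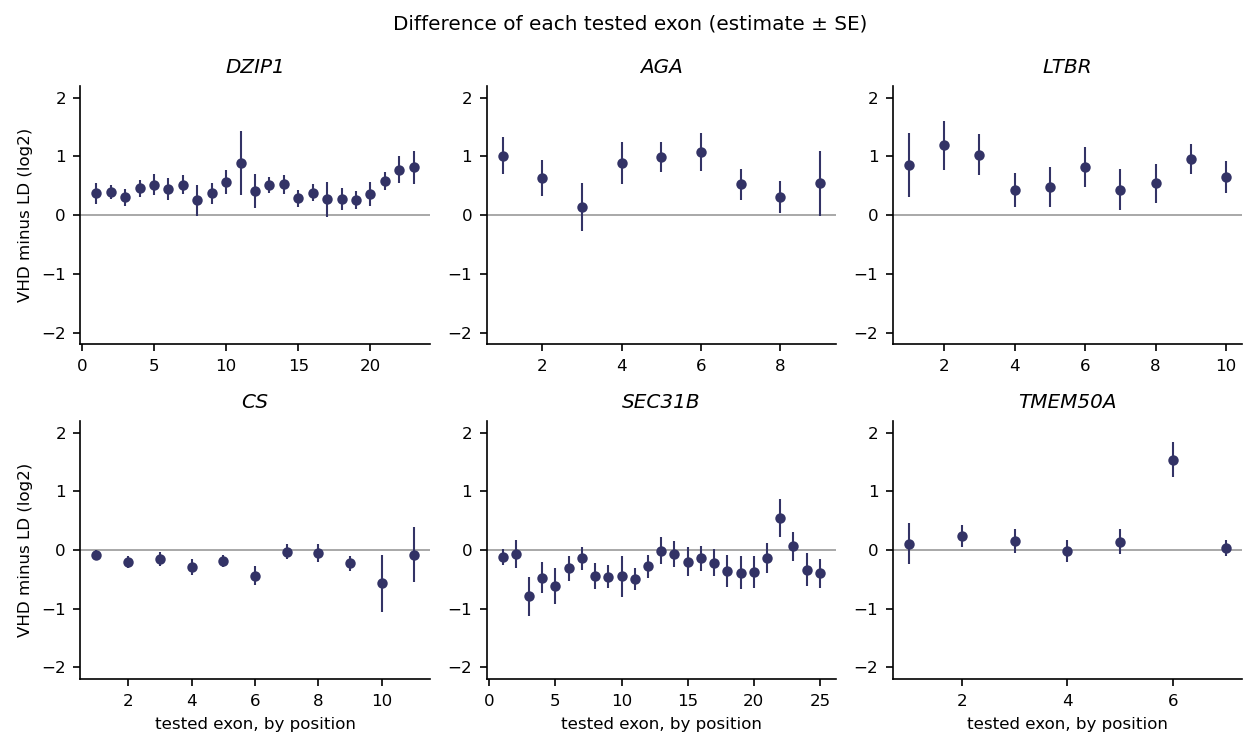
VHD minus LD difference of each tested exon (log2, estimate with SE bars) in 6 genes, with exons in order of position along the chromosome. DZIP1, AGA and LTBR exons are all above 0 and CS exons all below 0, while 1 TMEM50A exon stands at 1.54 above the other 6 at −0.02 to 0.24.

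The 3 genes whose VHD and LD values did not overlap were not those with the smallest p. GPAT2, a glycerol-3-phosphate acyltransferase of mitochondria, had 24.6, 28.5 and 32.1 normalized reads in VHD, against 37.2, 46.1 and 72.0 in LD. CRIP3, a LIM domain protein, had 41.5, 56.2 and 63.2 in VHD, against 64.2, 83.6 and 92.1 in LD. DMPK, the kinase whose gene carries the repeat of myotonic dystrophy, had 368, 374 and 424 in VHD, against 434, 510 and 627 in LD. For DMPK and CRIP3 the gap between the groups was small against the spread within LD.

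With cohort in the model the differences of GPAT2, CRIP3 and DMPK were −0.52 ± 0.21, −0.37 ± 0.18 and −0.28 ± 0.16, at unadjusted p of 0.021, 0.0464 and 0.0895. Within cohort 7a they were −0.67, −0.55 and −0.35. Without the cohort term they were −0.69, −0.53 and −0.41. The order of the category medians differed between the genes. CRIP3 had medians of 56.2 in VHD, 68.7 in HD, 69.4 in BD and 83.6 in LD, in the order of intake. GPAT2 had medians of 28.5 in VHD, 25.1 in HD, 36.1 in BD and 46.1 in LD, while DMPK had 374 in VHD, 407 in HD, 566 in BD and 510 in LD. GPAT2 lies on chromosome 2a, and only 3 of its 21 listed exons passed the exon filter. DMPK had negative differences in 14 of 15 exons and CRIP3 in 6 of 8.

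Of the 12 largest differences among genes with a mean log2 value of 5 or more, 5 belong to genes already described (AGA, TMEM100, PLAC9, SNRPC and SYPL2), and the smallest SE among the other 7 was 0.39. SPINT1, a protease inhibitor of epithelia, was at 1.15 ± 0.43, yet its median was 27.97 normalized reads in VHD and 34.0 in LD, and 1 VHD library reached 95.5. APOC1, a small apolipoprotein, was at 1.03 ± 0.46, with 12.5, 44.2 and 140 in VHD and 13.3, 24.5 and 68.8 in LD. KRT19, an epithelial keratin, was at 0.75 ± 0.63 and at 0.00 within cohort 7a. On the lower side TNFRSF14, a receptor of lymphocytes, was at −1.04 ± 0.42, ANGPTL4, a lipase inhibitor induced by fasting and glucocorticoids, at −1.03 ± 0.39, and RGL4 at −0.89 ± 0.44. IFIT1B, of an interferon-induced family with close copies, was at −0.94 ± 1.37 and was listed at 0 in 1 LD library. Its difference within cohort 7a had the opposite sign, 1.91.

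Neuronal signalling genes showed small differences with a lean in some groups. Of 31 tested immediate early genes, which neurons switch on after activity, 24 differences were above 0 and 7 below, with a median of 0.13 and 0.19 within cohort 7a. Over all tested genes 6452 differences were above 0 and 6483 below, and the median within cohort 7a was 0.01. NR4A3, an orphan nuclear receptor, had 211, 365 and 401 normalized reads in VHD and 197, 258 and 379 in LD, at 0.52 ± 0.19 (unadjusted p = 0.0106). BDNF, the growth factor that supports synapses, was at 0.36 ± 0.18. The groups overlapped in the list as a whole: its score per library, the mean over its genes of the log2 value less the gene's mean, ran from −0.23 to 0.33 in VHD and from −0.26 to 0.18 in LD.

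Of 23 neuropeptide and peptide-processing genes, 20 differences were above 0 and 3 below, with a median of 0.11. The score of this list per library ran from −0.13 to 0.04 in VHD, inside the LD range of −0.28 to 0.20, so the groups overlapped. NPY, neuropeptide Y, had 70.9, 114 and 204 normalized reads in VHD and 61.4, 82.1 and 176 in LD, a difference of 0.57 ± 0.25 (unadjusted p = 0.0294). SCG3, a granin of secretory granules, was at 0.21 ± 0.11 and PDYN, the precursor of dynorphin opioids, at 0.23 ± 0.16. Receptor genes of neuropeptides and opioids had 6 of 21 differences above 0 and a median of −0.08, which was −0.00 within cohort 7a.

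GABA and glycine receptor genes had 14 differences above 0 and 2 below among 16, with a median of 0.06. None had an unadjusted p under 0.05. GABRA4, an alpha subunit gene of the GABA-A receptor, had 2888, 4149 and 4631 normalized reads in VHD and 2534, 3619 and 4476 in LD, and its difference was 0.18 ± 0.11. Without the cohort term the list's median was 0.01. Glutamate receptor genes had 9 differences above 0 and 12 below among 21.

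Genes of transmitter release, ion channels and G protein signalling were described list by list. Of 40 vesicle release genes, 12 differences were above 0 and 28 below, with a median of −0.05 and −0.11 within cohort 7a. NAPA, which recycles the fusion machinery, had 1152, 1391 and 1651 normalized reads in VHD and 1394, 1586 and 1727 in LD, at −0.28 ± 0.09 (unadjusted p = 0.00567), and the active zone gene RIMS3 was at −0.16 ± 0.08. NAPA and SYPL2 were the 2 members at an unadjusted p under 0.05. Sodium and calcium channel genes had 5 differences above 0 and 15 below among 20, with a median of −0.06, and potassium channel genes 16 above and 21 below among 37, with a median of −0.03. Genes of G protein signalling and neurites had 11 above and 16 below among 27. Of these RGS20, which shortens G protein signals, was at −0.41 ± 0.17 (unadjusted p = 0.026).

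The primary cilium list, DZIP1 included, was balanced, with 29 differences above 0 and 28 below among 57 tested genes and a median of 0.01. At an unadjusted p under 0.05, 3 were higher and 3 lower. BBS5 and BBS7, parts of the coat complex that carries membrane proteins into cilia, were at 0.28 ± 0.13 and 0.24 ± 0.11, and each of the 6 VHD libraries exceeded the LD median for both. CC2D2A and B9D1, parts of the gate at the cilium's base, were at −0.29 ± 0.10 and −0.47 ± 0.19. CC2D2A had 719, 804 and 922 normalized reads in VHD and 758, 944 and 1123 in LD. The 6th gene was KIF7, a kinesin of the Hedgehog pathway, at −0.32. BBS5, BBS7 and KIF7 are named because they complete these counts and were chosen after their values were seen.

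Marker genes of the cell types that cortex holds were compared in the same fit. Markers of vessel walls had mostly negative differences: 10 of 11 mural cell genes were below 0, with a median of −0.26 that was −0.17 without the cohort term, and 11 of 15 endothelial genes were below 0, with a median of −0.10 that turned to 0.03 without the cohort term. CD93, a lectin of endothelial cells, was at −0.76 ± 0.25 (unadjusted p = 0.00464), and TIE1, an endothelial receptor, at −0.44 ± 0.21. Of the mural genes NOTCH3 was at −0.28 ± 0.17 and PDGFRB at −0.21 ± 0.14, and CNN1, of smooth muscle, at −1.46 ± 0.72 on values of 1.38 to 21.9 normalized reads in VHD and 2.07 to 152 in LD. All 13 fibroblast and meninges genes were below 0, with a median of −0.17, which was 0.18 in cohort 7a alone and 0.06 with no cohort term. COL3A1, a fibrillar collagen, had 237 to 854 normalized reads in VHD and 227 to 871 in LD.

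Oligodendrocyte markers had 14 of 17 differences above 0 and a median of 0.18, and the median was −0.16 within cohort 7a. The score of this list per library ran from −0.42 to 0.96 in VHD and from −0.39 to 0.89 in LD so that the libraries of each group were spread widely and the groups overlapped. The part of these markers in the differences of other genes was not tested. The genes of axons and nodes of Ranvier had 8 of 8 differences below 0, with a median of −0.06. Of these CNTNAP1, which joins axon and myelin, had 2360, 2910 and 3602 normalized reads in VHD and 2926, 3323 and 3684 in LD, at −0.21 ± 0.10.

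Microglial markers had 6 differences above 0 and 8 below among 14, with a median of −0.06 that was 0.08 within cohort 7a. SPI1, the transcription factor of myeloid cells, had 10.6, 14.6 and 24.6 normalized reads in VHD and 15.5, 26.6 and 37.2 in LD, and CD68, a lysosomal protein of microglia, 25.8, 34.5 and 48.2 in VHD and 31.6, 41.4 and 60.0 in LD. Their differences were −0.67 ± 0.28 and −0.54 ± 0.23, and these were the 2 microglial markers lower at an unadjusted p under 0.05, with 0 higher. The highest difference in the list was 0.60. AIF1, another of these markers, had medians of 48.2 normalized reads in VHD and 36.1 in LD. C4A, a complement component whose near-identical copy C4B makes its value uncertain, was at −0.58 ± 0.23, and GIMAP5, a GTPase of lymphocytes, at −1.07 ± 0.31 on 4.27 to 19.5 normalized reads in VHD and 10.1 to 33.0 in LD. Interferon response genes were balanced, with 17 differences above 0 and 19 below among 36.

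Astrocyte markers had 7 differences above 0 and 9 below among 16. AQP4, the water channel of astrocyte endfeet, was higher at 0.29 ± 0.12 (unadjusted p = 0.0248), with 3554, 4346 and 5315 normalized reads in VHD and 3112, 3749 and 4450 in LD, while GFAP, their intermediate filament, was at −0.30 ± 0.17. AQP4 was at 0.09 within cohort 7a. Inhibitory neuron markers had 4 differences above 0 and 14 below among 18, with a median of −0.06. The lowest was DLX5 at −0.55 ± 0.27. The 1 member at an unadjusted p under 0.05 was NPY, which went the other way at 0.57. Excitatory neuron markers had 8 differences above 0 and 6 below among 14, with BCL11B at 0.30 ± 0.12. The differences of that list ran from −0.56 to 0.30. Oligodendrocyte precursor markers had 6 differences above 0 and 4 below among 10, with a median of 0.03 that was −0.03 within cohort 7a. The highest of these was VCAN, a matrix proteoglycan, at 0.33 ± 0.13.

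Ribosomal protein genes had 47 differences above 0 and 27 below among 74, with a median of 0.04 and 0.13 within cohort 7a. Glucocorticoid response genes had 7 above and 17 below among 24, with a median of −0.04. Over the 46 gene lists with more than 1 tested gene, 3 had a median above 0.1, 2 had a median below −0.1, and 30 kept the sign of their median within cohort 7a. The lists above 0.1 were the immediate early, neuropeptide and oligodendrocyte lists, and those below −0.1 the mural and the fibroblast and meninges lists. No list held a gene that passed the adjusted test.

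**Figure D3:**
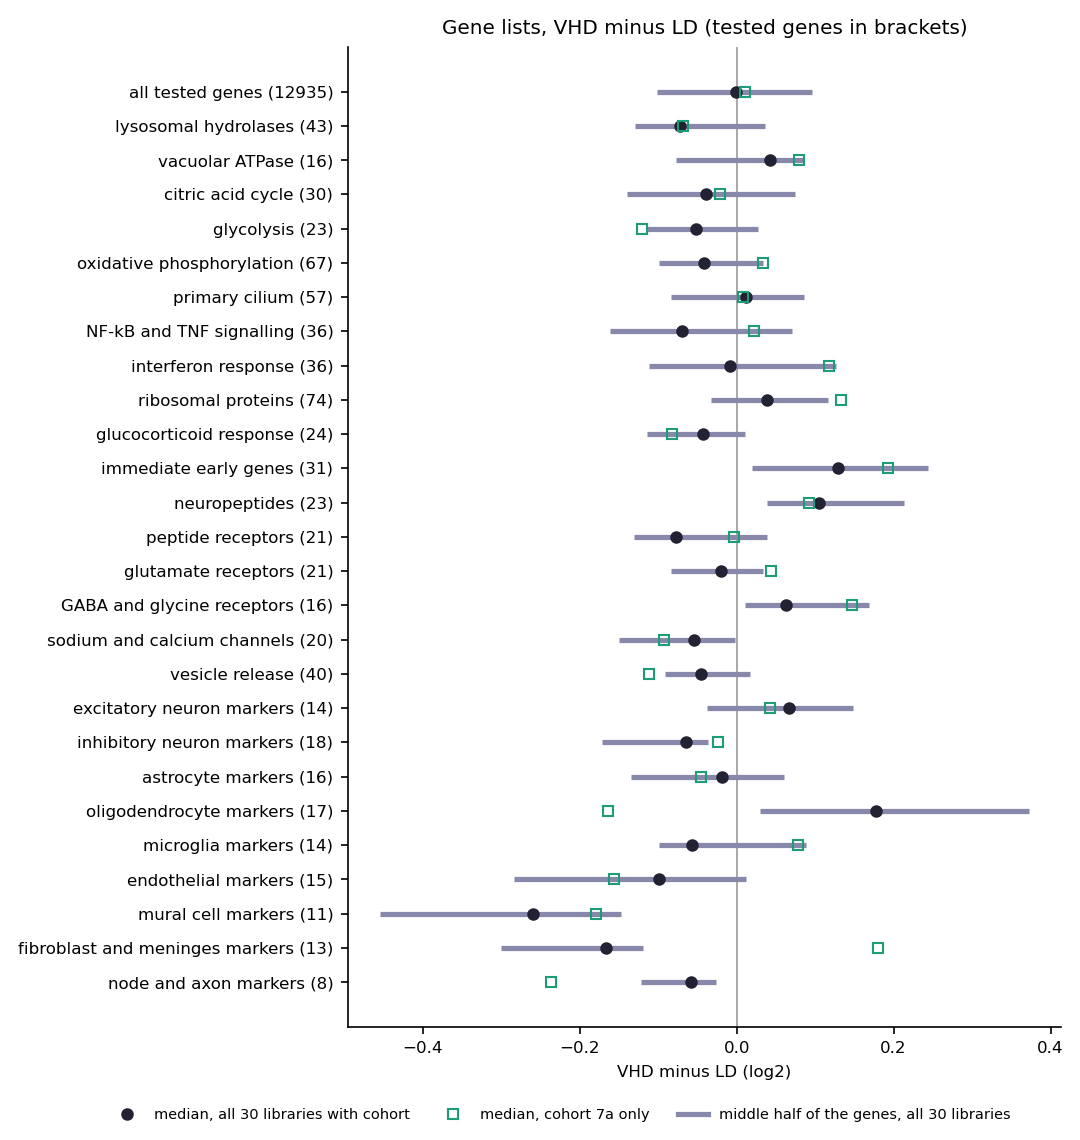
Median VHD minus LD difference (log2, filled circles) of the tested genes in 26 lists and in all tested genes, with a bar over the middle 50% of each list's genes and open squares for the median within cohort 7a. Immediate early genes (0.13) and neuropeptides (0.11) keep positive medians in cohort 7a, whereas the oligodendrocyte and the fibroblast and meninges lists change sign.

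Set against the heavy and binge drinkers instead, VHD again differed in no gene after adjustment. Of 12935 genes 0 (0%) were called against HD, with 232 (1.79%) higher and 185 (1.43%) lower at an unadjusted p under 0.05. Against BD 0 (0%) were called, with 285 (2.2%) higher and 228 (1.76%) lower, a total of 513 that was 919 without VHD replicate 4. Count models in edgeR and DESeq2 called 0 genes in both, with 425 and 438 at an unadjusted p under 0.05 against HD and 559 and 609 against BD. These comparisons share the 6 VHD libraries with each other and with the comparison against LD, so their values are given side by side only.

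DZIP1 was among the genes with the smallest p in both. Its difference was 0.30 ± 0.08 against HD (unadjusted p = 0.0011) and 0.38 against BD (unadjusted p = 0.00045), where HD libraries had 1713 to 2200 normalized reads and BD libraries 1689 to 2097, against 2140 to 2711 in VHD. The VHD values lay above all 7 BD values, and 1 VHD value lay below the highest HD value. CDYL, a chromatin corepressor, was 0.31 ± 0.08 higher than in HD, with mean log2 values of 8.996 ± 0.13 in VHD (SD, n = 6) and 8.64 ± 0.12 in HD (SD, n = 7). TNXB, an extracellular matrix protein with a partial copy in the human genome, was at 0.59 ± 0.15 and PARP15 at 1.67 ± 0.45 against HD. Lower than in HD were PRSS12, a synaptic protease, at −0.67 ± 0.20, SLFN5 at −0.38 ± 0.12, HSPA4, a chaperone, at −0.20 ± 0.06, and PTPLA, of very long chain fatty acid synthesis, at −0.58 ± 0.18.

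Against BD the other genes with the smallest p were KIF23, a kinesin of cell division, at 0.89, CCDC122 at 0.84 and TAF1D at 0.37, and, on the lower side, ITGB2, the leukocyte integrin subunit of microglia, at −0.75, PLA2G16 at −0.38, PCDHGA4 at −0.43 and AFAP1L1 at −0.47. PCDHGA4 shares its last exons with the other genes of its protocadherin cluster, so its value is uncertain. Since these genes were picked for their p against HD or BD, smaller values in another comparison follow from the choice. Against LD they were at 0.14 for CDYL, 0.13 for TNXB, 0.45 for PARP15, −0.43 for PRSS12, −0.13 for SLFN5, −0.04 for HSPA4 and 0.21 for PTPLA, which had the opposite sign. The genes picked against BD were at 0.57 for KIF23, 0.56 for CCDC122, −0.52 for ITGB2, −0.34 for PCDHGA4 and −0.30 for AFAP1L1.

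At the level of single exons, 119940 were tested and 0 (0%) passed an adjusted p of 0.05, with 2026 (1.69%) higher and 2182 (1.82%) lower at an unadjusted p under 0.05. Without VHD replicate 1 the number called was 1, and in 19 of 20 alternatives it was 0.

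Among the exons with the smallest p was 1 of TMEM50A, a small membrane protein gene. This exon of 61 bases on chromosome 1, at 23957455 to 23957515, had 37.6, 57.7 and 67.7 normalized reads in VHD, against 12.0, 18.9 and 50.1 in LD. Of the 6 VHD libraries 4 lay above all LD libraries, and in cohort 7a the 2 VHD libraries, at 61.8 and 67.7, lay above the 3 LD libraries at 17.5 to 26.1. The difference was 1.54 ± 0.30, with an adjusted p of 0.604 by limma. The other 6 tested exons of TMEM50A were at −0.02 to 0.24. The NOC3L exon on chromosome 10, at 89459278 to 89459485, had 10.3, 14.7 and 26.6 normalized reads in VHD, against 2.33, 5.59 and 11.0 in LD, a difference of 1.65 ± 0.34. Here 5 VHD libraries lay above all LD libraries, while the other 18 tested exons of the gene were at −0.19 to 0.63. A further exon with a positive difference was in SLC38A6 (1.48 ± 0.32), and exons with the smallest p among the lower ones were in SULF2 (−0.75 ± 0.17), PRKCZ (−0.74 ± 0.17) and TAP2 (−1.05 ± 0.25). The smallest p on that side was that of an ATP5F1 exon at −1.14 ± 0.25, yet its VHD and LD libraries overlapped, with 41.6, 51.5 and 62.4 normalized reads in VHD and 37.1, 56.6 and 136 in LD. Without the cohort term the ATP5F1 difference was −0.17, and in cohort 5 the HD and BD libraries had 130 to 195 normalized reads against 41.6 to 62.4 in VHD. SLC38A6, SULF2, PRKCZ, TAP2 and ATP5F1 each had an exon adjusted p of 0.9997 by limma.

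**Figure D4:**
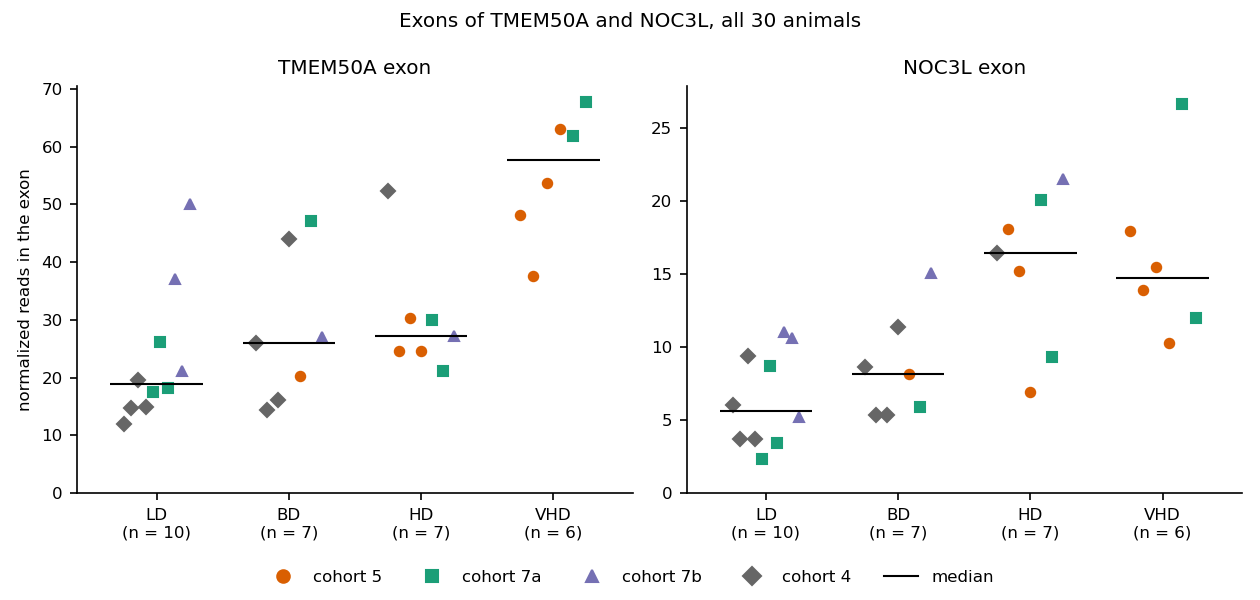
Normalized reads of the TMEM50A exon and the NOC3L exon (linear axes from 0) in all 30 libraries, with drinking categories in order of intake, cohort by symbol and the category median as a line. For the TMEM50A exon the LD, BD, HD and VHD medians are 18.9, 25.9, 27.2 and 57.7, and single LD, BD and HD libraries reach 50.1, 47.1 and 52.2.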

How the data were processed

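Reads were 1 library per animal from area 32, made with a stranded kit after removal of ribosomal RNA, per the labels. The submitters' processing notes name CASAVA, FastQC, STAR 2.3.0e and edgeR. Neither the genome build nor the annotation, the counting program or the coordinate base is given in the sources used here. The deposited gene and exon tables hold a normalized signal, reads that the authors scaled to a common upper quartile, as the name of the deposit states and the values show, and not raw counts. Dividing by the smallest step of each library returned whole reads for 100% of values (tolerance 0.01), which gave depth and the input for edgeR 4.0.16 and DESeq2 1.42.0. Differences were fitted with limma 3.58.1 in R 4.3.3 with a mean trend on log2(value + 1), with category and cohort as terms and all 30 libraries, for the 12935 of 15521 genes that reached 10 normalized reads in 6 or more libraries. Exons (119940 of 156345, 5 in 6 or more libraries) were fitted the same way. Each had its own variance, drawn by limma toward a mean trend over the tested exons. P-values were adjusted by Benjamini-Hochberg within each comparison at 0.05. Counting depth limits the precision of low genes, and p-values measure the spread between animals.

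Genes were named by rule: the 15 smallest p per direction, genes without overlap, the 6 largest differences per direction with a mean log2 of at least 5, the 3 smallest p per list, and 4 per direction for HD, BD and exons. Some features that meet the rule were left out of the text but not of the counts. The members and lists were chosen with earlier results of these data known. No ethanol-naive animals were analysed here. Alternatives were other pseudocounts, filters and scalings, other model terms, array weights, fewer categories, cohort 7a alone, edgeR, DESeq2 and each VHD or LD library left out. HD and BD libraries were not left out singly. A further alternative, chosen after the data were seen, left out the shallowest libraries (fewer than 6 times 10 to the power of 6 reads). The fits were tested on simulated reads with set changes in VHD but no cohort effect. That test could not show how well category and cohort are separated. Figures were drawn with matplotlib 3.10.9 in Python 3.11.15.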

Additional observations from a re-analysis of the deposited data

Results flagged for a closer look

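In 16 of the 204 groups examined (the VHD or the LD libraries of a named gene or exon), 1 library lay apart from the rest of its group by Dixon's criterion, which chance meets in about 1 of 20 groups. Values here are log2(normalized reads + 1). Among VHD libraries, replicate 3 was apart at the top for GPRIN3 (8.17, next 7.90) and for RGS20 (6.82, next 6.49). Replicate 5 was apart at the bottom for LIPA (7.62, next 7.80), and replicate 2 for ANGPTL4 (3.08, next 4.73).

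Among LD libraries, replicate 1 of cohort 7b was apart at the top for HMGB3 (7.40, next 7.13), FSD1L (6.13, next 5.60) and CNN1 (7.26, next 4.45), and at the bottom for FANCG (6.81, next 7.23). Replicate 3, the shallowest library, was apart at the bottom for B9D1 (6.24, next 6.62) and GABRA4 (11.3, next 11.8). Replicate 4 was apart at the top for the ATP5F1 exon (7.10, next 5.94), replicate 5 for GPAT2 (6.19, next 5.72) and replicate 7 for KLHL41 (5.74, next 5.40). Replicate 6 was apart at the bottom for RGL4 (3.40, next 5.64), and replicate 8 for IFIT1B (0, next 6.88) and PARP15 (1.09, next 2.66).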

How the results depend on the processing

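The number of genes called for VHD against LD was 0 in 30 of 31 alternatives, and 1 (DZIP1, at 0.49) with age in place of cohort, and the smallest adjusted p by limma, edgeR or DESeq2 ranged from 0.00879 to 0.9996. It was 0 in 30 of 30 alternatives against HD and in 30 of 30 against BD. The 453 genes at an unadjusted p under 0.05 for VHD against LD numbered 748 without the cohort term (235 shared). They numbered 814 with only VHD and LD libraries and no cohort term, 725 within cohort 7a (167 shared), 1046 with array weights and 492 by edgeR. When 1 VHD or LD library was left out they numbered 322 to 813. Against HD the 417 such genes numbered 276 with a minimum of 100 normalized reads and 311 to 601 when 1 VHD or LD library was left out. Against BD the 513 numbered 1060 without the cohort term, 2288 with array weights and 362 to 919 when 1 VHD or LD library was left out. The effect of leaving out single HD or BD libraries was not tested. Exons at an unadjusted p under 0.05 numbered 6351 without the cohort term and 3174 to 5506 when 1 VHD or LD library was left out. Exons called numbered 0 to 1, the 1 without VHD replicate 1. Genes with all VHD values below all LD values numbered 1 at a minimum of 100, since GPAT2 and CRIP3 are below that minimum.

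Among the 40 genes named for the smallest p, no overlap or the largest differences against LD, 1 changed sign, IFIT1B at 1.91 within cohort 7a. The other named genes were not followed through all alternatives, and HSPA4 went from −0.04 to 0.01 within cohort 7a. Of 1334 list medians, 21 moved by more than the SD of the list's score between LD libraries. That SD was wide in some lists. The oligodendrocyte median went from 0.18 to −0.16 within cohort 7a, which was under its SD of 0.41 and not among the 21. Apart from that minimum, the cause was not tested in any of these cases. Cohort and category cannot be fully told apart, since 1 cohort holds both VHD and LD. No paired analysis was possible because the replicate numbers follow the order of deposition and pair no animals.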
